A study of Arabidopsis thaliana with 10 samples.

Results

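The genes described here are the 33 members of the Arabidopsis thaliana XTH family, XTH1 to XTH33, which encode xyloglucan endotransglucosylase/hydrolases. They were taken from the deposited table by their gene identifiers and make up 33 of its 33559 genes. The table covers 3-day-old seedlings of 5 genotypes in the Col-0 background: hls1, pifq, ein3 eil1, pifq ein3 eil1 and the wild type Col-0. After 3 days in the cold and 3 to 6 hours of light, seeds were kept in darkness at 22 °C for 3 days with no treatment, and shoots without roots were collected. The 10 samples were 2 biological replicates of each genotype.

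The hls1 line carries a mutation of HOOKLESS1, a gene needed for the apical hook of dark-grown seedlings. The pifq line is mutated in the bHLH transcription factor genes PIF1, PIF3, PIF4 and PIF5. The ein3 eil1 line is mutated in EIN3 and EIL1, which encode the chief transcription factors of ethylene signalling. The line pifq ein3 eil1 carries both sets of mutations. The labels name no alleles. The comparisons ask how the levels of genes differ when the hook gene, the PIFs, EIN3 and EIL1, or both sets of factors are missing.

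Xyloglucan is the main hemicellulose that coats and links cellulose in the primary walls of plants such as Arabidopsis. XTH enzymes are secreted into the wall, where they cut a xyloglucan chain and join the new end to another chain, or in some members to water. They are known from growing tissues, in which the wall is both loosened and rebuilt. By sequence the family is divided into groups I, II and III, and the A branch of group III, XTH31 and XTH32, is associated with hydrolysis in place of joining.

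Each value is 1 RPKM number per gene and genotype, reads scaled by the authors to gene length and to mapped reads. It was taken as the mean of both samples of a genotype, so the spread between samples is not visible and no difference could be tested. In the absence of a test, the words higher and lower stand for a difference in log2(RPKM + 1) of at least 1, which is a 2-fold difference in RPKM + 1, among the 18581 genes that reached 1 RPKM in at least 1 genotype, called measured genes here. Folds on this scale understate the change of genes near 1 RPKM. In the mutants of the genes concerned, EIN3 was at 17.9 RPKM in ein3 eil1, with EIL1 at 10.8, against 84.0 and 44.4 in Col-0. PIF3 was at 5.61 RPKM in pifq and PIF5 at 1.60, against 35.1 and 4.34 in Col-0, while PIF1 at 18.2 and PIF4 at 8.69 in pifq were not lower than the 19.0 and 4.36 of Col-0. In pifq ein3 eil1, EIN3 was at 13.3, EIL1 at 10.7, PIF3 at 2.35, PIF5 at 2.31, PIF1 at 11.8 and PIF4 at 11.6 RPKM. HLS1 was at 6.28 RPKM in hls1, against 11.2 in Col-0, which is under the threshold, while it was lower, at 2.84 RPKM, in ein3 eil1 and, at 3.04 RPKM, where both sets were mutated. The level of HLS1 thus does not set the hls1 column apart. The low values fall into steps that correspond to about 10500000 counted reads per library in hls1 and 13300000 in each other genotype, an estimate that rests on reference exon lengths. The labels give no batch.

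The catalytic centre of XTH enzymes holds acidic residues in a short conserved segment, and the stretch of 27 coding bases that encodes it was found in 32 members. It is shown for the 7 members that were lower in pifq, since they come from separate branches of the family. The codons in capitals are those of the acidic residues at the second, the fourth and the sixth place. The segments were read 5′ to 3′ from the RefSeq annotation of the TAIR10.1 genome, on the coding strand.
XTH15: gacGAGataGACtttGAGtttctaggt
XTH17: gatGAGatcGATttcGAGttcttggga
XTH18: gatGAGattGATttcGAGttcttagga
XTH19: gatGAGattGATttcGAGtttttgggg
XTH30: gacGAGttaGACataGAGtttctaggg
XTH31: gatGAGgtcGATatcGAGtttctaggg
XTH33: gacGAGataGACataGAAttgttgggt
The fifth codon was ttt or ttc in XTH15, XTH17, XTH18 and XTH19, which belong to group II. It was ata or atc in XTH30, XTH31 and XTH33, which belong to group III, but ttt in XTH27 and XTH28 of the same group. The coding sequences of the family were 810 to 1074 bases long.

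Promoters are shown for 5 members: XTH15 and XTH7, which hold the largest differences in pifq and in ein3 eil1, and XTH17, XTH18 and XTH33, the members lower in pifq that hold a PBE-box. They were picked with the motifs known, so the set does not show that motifs go with the calls. Each runs from 250 bases before to 50 bases after the start of the gene in RefSeq's TAIR10.1 annotation and is written in the direction of transcription. Capitals mark the G-box CACGTG and the PBE-box CACATG or CATGTG, which PIFs are known to bind, and ATGTAC or GTACAT, a form of the sequence bound by EIN3. Both strands were searched, and the motifs do not overlap each other in these windows.
XTH15 promoter, chr4:8138343-8138642, minus strand: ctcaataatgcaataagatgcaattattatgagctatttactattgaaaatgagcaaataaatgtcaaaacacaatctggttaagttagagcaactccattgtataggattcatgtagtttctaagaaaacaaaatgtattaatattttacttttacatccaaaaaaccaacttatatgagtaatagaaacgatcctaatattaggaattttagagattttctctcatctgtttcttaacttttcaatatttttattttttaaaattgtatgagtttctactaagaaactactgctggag
XTH17 promoter, chr1:24256804-24257103, plus strand: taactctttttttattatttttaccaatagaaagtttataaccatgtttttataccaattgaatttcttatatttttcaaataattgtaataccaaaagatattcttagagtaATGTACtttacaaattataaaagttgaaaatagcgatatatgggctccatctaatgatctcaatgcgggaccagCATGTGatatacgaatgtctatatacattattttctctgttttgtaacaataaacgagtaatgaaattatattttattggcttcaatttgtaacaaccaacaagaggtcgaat
XTH18 promoter, chr4:14827162-14827461, minus strand: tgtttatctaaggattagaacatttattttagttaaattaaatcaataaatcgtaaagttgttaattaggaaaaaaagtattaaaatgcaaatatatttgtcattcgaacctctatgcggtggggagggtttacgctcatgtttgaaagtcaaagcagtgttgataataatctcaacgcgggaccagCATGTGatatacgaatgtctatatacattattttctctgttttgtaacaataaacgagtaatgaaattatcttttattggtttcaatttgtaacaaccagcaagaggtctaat
XTH33 promoter, chr1:3480992-3481291, minus strand: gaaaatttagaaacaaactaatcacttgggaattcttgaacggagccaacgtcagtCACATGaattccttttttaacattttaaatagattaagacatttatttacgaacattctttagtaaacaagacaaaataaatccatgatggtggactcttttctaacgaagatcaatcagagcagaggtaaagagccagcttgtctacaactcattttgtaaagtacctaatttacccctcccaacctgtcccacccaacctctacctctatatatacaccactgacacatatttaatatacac
XTH7 promoter, chr4:17777396-17777695, minus strand: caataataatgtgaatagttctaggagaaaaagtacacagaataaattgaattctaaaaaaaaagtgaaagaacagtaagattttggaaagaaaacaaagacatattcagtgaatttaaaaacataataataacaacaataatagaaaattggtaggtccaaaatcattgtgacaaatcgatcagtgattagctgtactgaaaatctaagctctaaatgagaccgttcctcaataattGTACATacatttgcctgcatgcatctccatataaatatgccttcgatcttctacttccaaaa
In this window, the PBE-box was found in 5 of 33 members, or 15.2%, against 12.9% of 27443 protein-coding genes. The EIN3 motif was found in 4 members, or 12.1%, against 10.8% of all, and the G-box in no member, against 7.68% of all. The shares of the PBE-box and the EIN3 motif are near those of all promoters. Over the 1000 bases before the start, the shares were 12.1% of members against 14.8% of all for the G-box, 39.4% against 37.7% for the PBE-box and 33.3% against 33.9% for the EIN3 motif.

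In XTH17 and XTH18 the PBE-box begins 63 bases before the start, within a run of 80 bases that both promoters share letter for letter. The promoters of XTH17 and XTH18 were 74.9% identical over 283 aligned bases. XTH17 also holds the EIN3 motif, 137 bases before the start. XTH33 holds the PBE-box 194 bases before the start, and XTH7 the EIN3 motif 12 bases before it. No motif searched was found in the XTH15 window, nor in the 1000 bases before its start. The windows of XTH19, XTH30 and XTH31, the remaining members lower in pifq, held none of them. Upstream of these windows, XTH19 and XTH31 hold a PBE-box, 361 and 905 bases before the start. XTH30 and XTH7 hold a G-box there, 812 and 363 bases before the start. Within the windows, the PBE-box was also found in XTH25 and XTH26 and the EIN3 motif in XTH6 and XTH13. XTH13 and XTH25 stayed under 1 RPKM and could not be called. At 0.113 and 0.755 RPKM in Col-0, XTH26 and XTH6 could not be called lower against it. XTH6 was higher in hls1, pifq and pifq ein3 eil1 against Col-0 and in pifq ein3 eil1 against ein3 eil1. A match is given as a description of the letters and not as a bound site.

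Of the 33 members, 25 reached 1 RPKM in at least 1 genotype. XTH1, XTH2, XTH3 and XTH25 were listed at 0 in every genotype. XTH11, XTH13, XTH21 and XTH29 were above 0 but under 1 RPKM throughout; XTH29, for example, was worth about 1 read in ein3 eil1 and in Col-0. XTH10 passed the filter through ein3 eil1 alone and XTH26, known from root hairs, through hls1 alone, and neither differed from Col-0 by 1. XTH6 and XTH12 passed through mutants, not through Col-0, where XTH6 was at 0.755 and XTH12 at 0.187 RPKM.

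RPKM is scaled to gene length, so levels can be set side by side between members. In Col-0, XTH15 was the highest at 1922 RPKM, followed by XTH4 at 1497, XTH17 at 474, XTH31 at 338, XTH8 at 316 and XTH19 at 279. XTH15 and XTH17 are known as shade-induced genes of growing petioles, and XTH4 is known from the expansion of xylem and fibre cells. In the mutants the order differed: XTH4 led in hls1, pifq and pifq ein3 eil1, whereas XTH15 led in ein3 eil1 as in Col-0, was ranked 10 in pifq and was ranked 12 in pifq ein3 eil1.

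**Figure D1:**
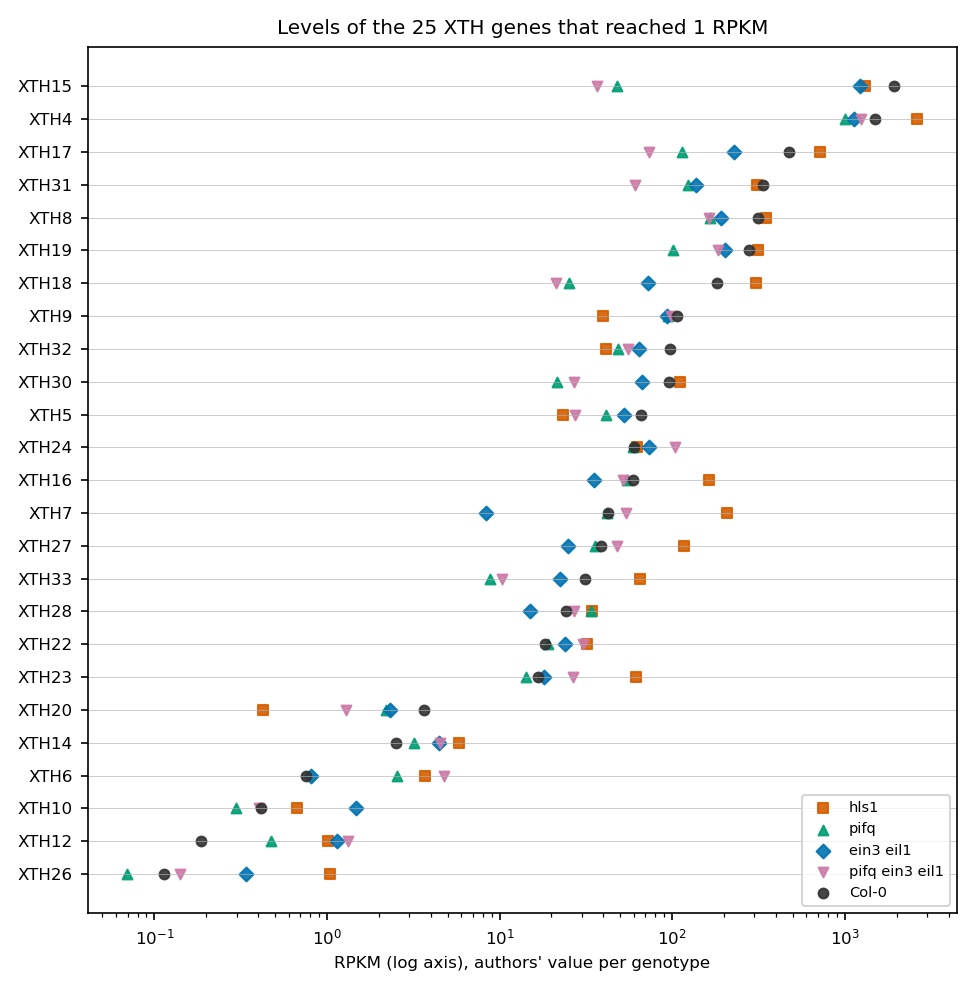
RPKM of the 25 members that reached 1 RPKM (log axis), 1 point per genotype, ordered by the Col-0 value; each point is the authors' single value, with no error bar. XTH15 lies at 48.2 RPKM in pifq and 36.7 in pifq ein3 eil1, far left of its other points, and XTH7 lies at 8.33 in ein3 eil1 and 209 in hls1.

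Summed over the family, the level was 6921 RPKM in hls1, 2069 in pifq, 3696 for ein3 eil1 and 2356 for pifq ein3 eil1, against 5672 in Col-0. That is 0.829%, 0.227%, 0.503%, 0.281% and 0.658% of each column's total in the same order. XTH15 made up 18.9% of the family sum in hls1, 2.33% in pifq, 32.97% of that in ein3 eil1 and 1.56% where both sets were mutated, against 33.9% in Col-0. By group, the sums in pifq and in Col-0 were 1354 against 2029 RPKM for group I, 442 against 3018 for group II, 172 against 434 for group III-A and 100.3 against 190.0 for group III-B. Group II thus made up most of the gap. Its member XTH15, at 48.2 RPKM in pifq against 1922 in Col-0, held most of the group II gap. The pifq sum was 0.365 times that of Col-0, or 0.539 times without XTH15. The hls1 sum was 1.22 times that of Col-0, or 1.5 times without XTH15.

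**Figure D2:**
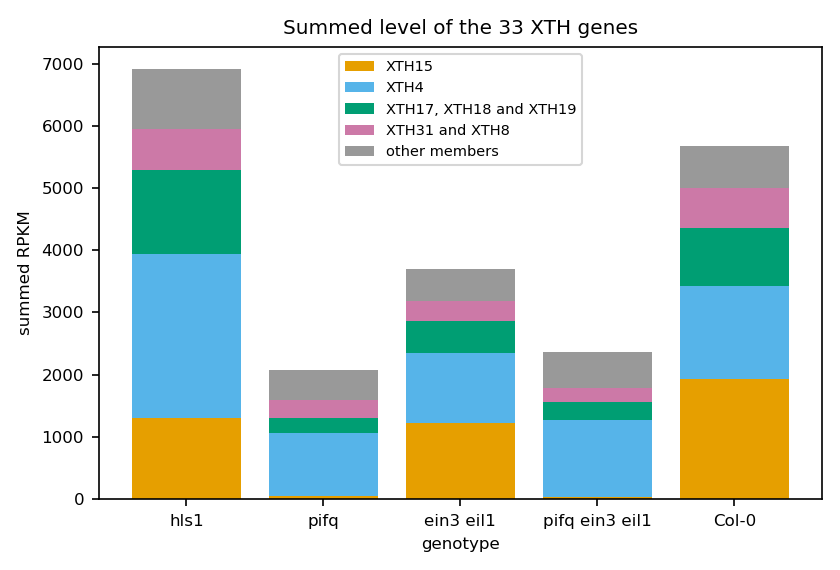
Stacked bars of RPKM summed over all 33 members in each genotype, with XTH15, XTH4 and 2 further sets of members in colour. The hls1 bar reaches 6921, the pifq bar 2069 and the ein3 eil1 bar 3696, and the pifq ein3 eil1 bar 2356, against 5672 for Col-0; XTH15 is hardly visible in both mutants without PIFs.

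In pifq, 7 of the 33 members were lower than in Col-0, or 21.2%, where 6.22% of all measured genes were lower. Of the 33, 1 was higher, or 3.03%, where 3.39% of all measured genes were. In each comparison, the share of members called is taken over all 33, of which only 25 were measured and could be called. The share of all genes is taken over measured genes only, so the member shares are understated beside it. The 3.03% thus does not show a share below that of measured genes. Among genes at 10 RPKM or more in some genotype, 0 of 19 members were higher and 7 lower, where 3.55% and 6.53% of all such genes were. The lower ones were XTH15, XTH17, XTH18 and XTH19 of group II, XTH31 of group III-A, and XTH30 and XTH33 of group III-B. No member of group I was lower in pifq, and the higher one, XTH6, belongs to that group. In bulk shoots, fewer cells of a type and less RNA per cell cannot be told apart.

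XTH15 (AT4G14130) stood at 1307 RPKM in hls1, at 48.2 in pifq, at 1219 in ein3 eil1 and at 36.7 in pifq ein3 eil1, against 1922 in Col-0. In pifq its log2 difference was -5.29, and the RPKM ratio was 0.0251. The values without the PIFs lie far below all those with them.

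XTH17 (AT1G65310) stood at 723 RPKM in hls1, 113 in pifq and 227 in ein3 eil1, and at 73.1 in pifq ein3 eil1, against 474 in Col-0. XTH18 (AT4G30280) stood at 305 RPKM in hls1, at 25.3 in pifq, at 72.2 in ein3 eil1 and at 21.2 in pifq ein3 eil1, against 182 in Col-0. Both run in the same order over the genotypes, highest in hls1 and lowest in pifq ein3 eil1, and their log2 differences in pifq were -2.05 and -2.79. XTH18 is known from the elongation of the primary root. The coding sequences of XTH17 and XTH18 were 92.2% identical, and their transcripts shared a run of at most 47 bases. How the authors placed reads that match more than 1 member is not given in the sources used here, so the division of reads between this pair is uncertain.

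XTH19 (AT4G30290) stood at 315 RPKM in hls1, 101 in pifq and 203 in ein3 eil1, and at 184 in pifq ein3 eil1, against 279 in Col-0. It was lower in pifq by a log2 difference of -1.46, but the value in pifq ein3 eil1 was back near that in ein3 eil1. XTH19 shares a run of 68 bases with XTH18, the longest between any of the 528 pairs of members, so the same uncertainty holds.

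XTH30 (AT1G32170) stood at 111 RPKM in hls1, at 21.4 in pifq, at 66.8 in ein3 eil1 and at 27.1 in pifq ein3 eil1, against 96.0 in Col-0. XTH33 (AT1G10550), whose protein carries a predicted membrane anchor, stood at 65.0 RPKM in hls1, 8.85 in pifq and 22.4 in ein3 eil1, and at 10.3 in pifq ein3 eil1, against 31.3 in Col-0. For both, hls1 held the highest value and pifq the lowest. XTH31 (AT3G44990), known from root wall xyloglucan and aluminium binding, stood at 309 RPKM in hls1, at 123 in pifq, at 137 in ein3 eil1 and at 60.9 in pifq ein3 eil1, against 338 in Col-0. The 3 log2 differences in pifq were -2.11 for XTH30, -1.71 for XTH33 and -1.45 for XTH31. XTH31 was low in each mutant that lacks PIFs or EIN3 and EIL1 and lowest where both are missing.

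XTH6 (AT5G65730), whose levels are low, stood at 3.72 RPKM in hls1, 2.55 in pifq and 0.808 in ein3 eil1, and at 4.78 in pifq ein3 eil1, against 0.755 in Col-0, worth about 100 reads in pifq and 30 in Col-0. Its log2 difference in pifq was 1.02. Members close to the threshold were XTH32 at -0.97 and XTH8 at -0.93. XTH4 was at 1009 RPKM in pifq, against 1497 in Col-0, a log2 difference of -0.57, and XTH16, XTH22, XTH23, XTH24 and XTH27 differed by -0.21 to 0.06.

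Most measured root markers were lower in pifq as well. XTH17 to XTH20 are known from roots, but XTH20 was at -0.54 in pifq, under the threshold. Of 12 root markers, 8 were measured. In pifq, 6 of these were lower and none higher, where 6.22% and 3.39% of all measured genes were. The other measured markers, PRP3 and EXPA7, were at 0.22 and -0.24. The markers summed to 404 RPKM in hls1, to 42.1 in pifq, to 304 in ein3 eil1 and to 64.7 in pifq ein3 eil1, against 340 in Col-0. PIP2;4, a root aquaporin gene, was at 13.6 RPKM in pifq, against 181 in Col-0, and CASP1, of the Casparian strip, was at 15.4, against 83.8. RHD6 and COBL9, genes of root hairs, stayed under 1 RPKM in every genotype, and NRT2.1 was listed at 0 in hls1 and ein3 eil1. The part of remaining root tissue in the XTH values was not tested.

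**Figure D3:**
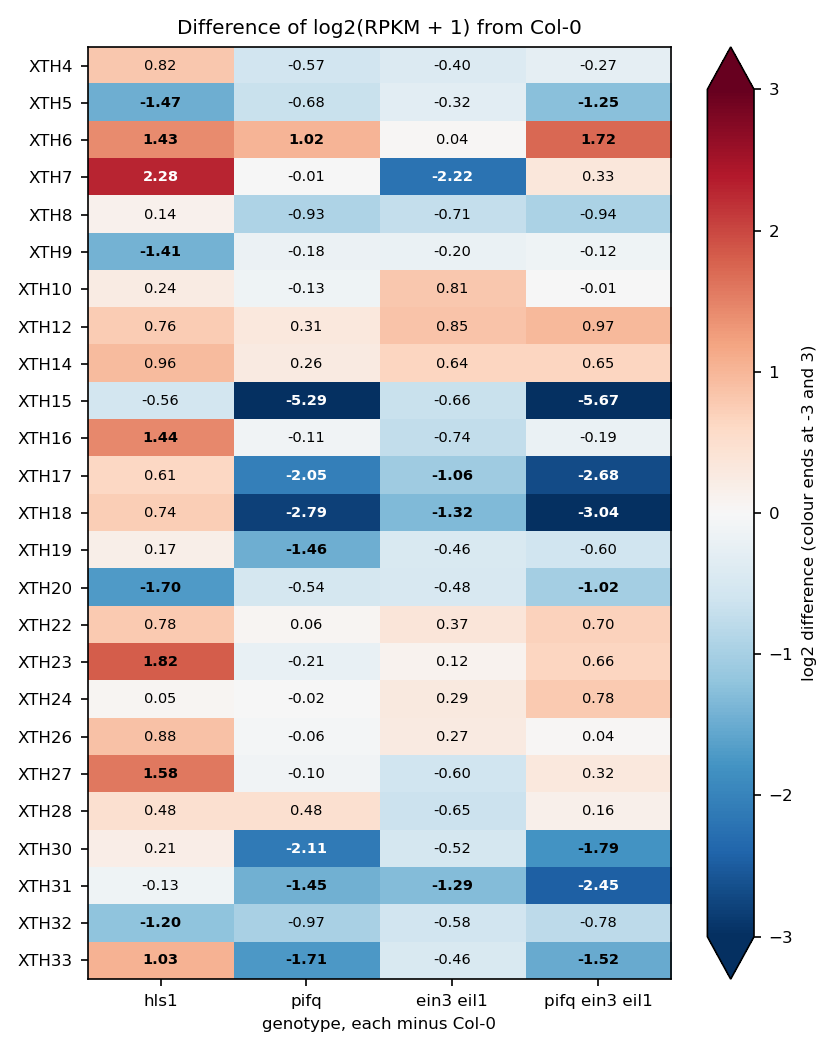
Difference of log2(RPKM + 1) from Col-0 for the 25 members that reached 1 RPKM (rows) in the mutants (columns); values of 1 or more either way are in bold, and the colour ends at -3 and 3. The pifq column holds 7 bold negative values, led by XTH15 at -5.29, and the hls1 column 6 bold positive and 4 bold negative ones.

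In hls1, 6 of the 33 members were higher than in Col-0, or 18.2%, where 3.4% of all measured genes were higher, and 4 were lower, or 12.1%, where 4% of all were. Among genes at 10 RPKM or more in some genotype, 5 of 19 members were higher and 3 lower, where 3.57% and 4.56% of all such genes were. The higher ones were XTH6 and XTH7 of group I, XTH16 and XTH23 of group II, and XTH27 and XTH33 of group III-B. The lower ones were XTH5 and XTH9 of group I, XTH20 of group II and XTH32 of group III-A. The median over all 33 members, those near or at 0 included, was 0.21. Over the measured members alone it was 0.61, beside 0.04 over all measured genes.

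XTH7 (AT4G37800) stood at 209 RPKM in hls1, 42.2 in pifq and 8.33 in ein3 eil1, and at 53.7 in pifq ein3 eil1, against 42.4 in Col-0. Its log2 difference in hls1 was 2.28. Its highest value was in hls1 and its lowest in ein3 eil1.

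XTH23 (AT4G25810), also known as XTR6 and related to the touch gene TCH4, stood at 61.5 RPKM in hls1, at 14.2 in pifq, at 18.1 in ein3 eil1 and at 26.8 in pifq ein3 eil1, against 16.7 in Col-0. XTH27 (AT2G01850), known from developing tracheary elements, stood at 117 RPKM in hls1, 35.9 in pifq and 24.995 in ein3 eil1, and at 48.2 in pifq ein3 eil1, against 38.5 in Col-0. XTH16 (AT3G23730) stood at 163 RPKM in hls1, at 55.05 in pifq, at 35.1 in ein3 eil1 and at 51.9 in pifq ein3 eil1, against 59.3 in Col-0. For each of the 3, hls1 stood above all other genotypes. The log2 differences in hls1 were 1.82 for XTH23, 1.58 for XTH27 and 1.44 for XTH16. XTH16 and XTH15, whose coding sequences were 81.7% identical, differed in hls1, where XTH15 was at -0.56, and in pifq, where XTH16 was at -0.11.

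XTH33 was higher in hls1 by 1.03, or 0.99 and under the threshold after median-of-ratios scaling. XTH6 was higher by 1.43. XTH4, the most abundant member in hls1, was at 2639.7 RPKM, against 1497 in Col-0, a log2 difference of 0.82. XTH14 at 0.96, XTH26 at 0.88, XTH22 at 0.78, XTH12 at 0.76 and XTH18 at 0.74 were likewise under the threshold. XTH22 is TCH4, a gene induced by touch and by brassinosteroid.

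XTH9 (AT4G03210), known with XTH4 from xylem, stood at 39.7 RPKM in hls1, 94.2 in pifq and 93.0 in ein3 eil1, and at 98.2 in pifq ein3 eil1, against 107 in Col-0. XTH5 (AT5G13870) stood at 23.3 RPKM in hls1, at 41.2 in pifq, at 53.0 in ein3 eil1 and at 27.2 in pifq ein3 eil1, against 66.4 in Col-0. XTH32 (AT2G36870) stood at 41.5 RPKM in hls1, 48.9 in pifq and 64.2 in ein3 eil1, and at 55.9 in pifq ein3 eil1, against 96.6 in Col-0. The lowest value was that of hls1 for all 3. Their log2 differences in hls1 were -1.41 for XTH9, -1.47 for XTH5 and -1.20 for XTH32. XTH9 was close to Col-0 in every other mutant. XTH20 (AT5G48070) stood at 0.424 RPKM in hls1 and 3.64 in Col-0, worth about 13 and 136 reads, a log2 difference of -1.70. Of the root markers, 1 was higher and 1 lower in hls1.

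In ein3 eil1, 4 of the 33 members were lower than in Col-0, or 12.1%, where 2.51% of all measured genes were lower, and 0 were higher, where 1.63% of all were. Among genes at 10 RPKM or more in some genotype, 0 of 19 members were higher and 4 lower, where 1.37% and 2.77% of all such genes were. The lower members were XTH7 at -2.22, XTH18 at -1.32, XTH31 at -1.29 and XTH17 at -1.06. The median over all genes in this comparison was itself -0.29. After scaling had removed that shift, XTH7 alone was lower, and XTH18, XTH31 and XTH17 stood at -0.98, -0.95 and -0.72, under the threshold. Of all genes called, 39.4% were higher as deposited and 68.4% after scaling. XTH15 at -0.66 and XTH4 at -0.40 were under the threshold. XTH10, the member that reached 1 RPKM in ein3 eil1 alone, was at 1.48 RPKM, against 0.416 in Col-0. Of the root markers, 3 were higher in ein3 eil1, namely PRP3, THAS1 and MRN1.

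In pifq ein3 eil1, 8 of the 33 members were lower than in Col-0, or 24.2%, where 6.04% of all measured genes were lower. Of the 33, 1 was higher, or 3.03%, where 3.81% of all measured genes were. As in pifq, the 3.03% is taken over all members, unmeasured ones included, and does not show a share below that of measured genes. Among genes at 10 RPKM or more in some genotype, 0 of 19 members were higher and 7 lower, where 3.36% and 6.59% of all such genes were. XTH15 was at -5.67, XTH18 at -3.04, XTH17 at -2.68, XTH31 at -2.45, XTH30 at -1.79 and XTH33 at -1.52. XTH5 at -1.25 and XTH20 at -1.02, the last of which was -0.88 after scaling, were the other two. XTH6 was the higher one, at 1.72. This comparison and those of pifq and ein3 eil1 share the Col-0 samples. Of all genes called, 38.7% were higher as deposited and 52% after scaling, and the median over all genes was -0.17. Of the root markers, 2 were higher and 4 lower.

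What the PIF mutations changed was also read without EIN3 and EIL1, in pifq ein3 eil1 against ein3 eil1, which shares no column with pifq against Col-0. There, 6 of the 33 members were lower, or 18.2%, where 3.99% of all measured genes were lower, and 2 were higher, or 6.06%, where 4.04% of all were. Among genes at 10 RPKM or more in some genotype, 1 of 19 members were higher and 6 lower, where 4.03% and 4.41% of all such genes were. The 6 lower members, XTH15 at -5.02, XTH18 at -1.72, XTH17 at -1.62, XTH30 at -1.27, XTH31 at -1.16 and XTH33 at -1.06, were all among the 7 that were lower in pifq against Col-0. They make up 85.7% of those 7 and 100% of the 6. Over all measured genes, 521 were lower in both comparisons, which is 45.1% of the 1156 lower in pifq against Col-0 and 70.3% of the 741 lower here. XTH19, the remaining one, was at -0.14. XTH5 was at -0.93, or -1.08 and past the threshold after scaling. XTH7 at 2.55 and XTH6 at 1.68 were the higher ones. Of the root markers, 5 of 8 were lower in this comparison and none higher. Of all genes called, 50.3% were higher as deposited and 38.6% after scaling.

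What the EIN3 and EIL1 mutations changed was likewise read without the PIFs, in pifq ein3 eil1 against pifq. Here 1 of the 33 members was lower, or 3.03%, where 1.12% of all measured genes were lower, and 0 were higher, where 1.76% of all were. Among genes at 10 RPKM or more in some genotype, 0 of 19 members were higher and 1 lower, where 1.13% and 1.2% of all such genes were. The lower member was XTH31 at -1.01, or -0.88 and under the threshold after scaling. Of all genes called, 61% were higher as deposited and 71.9% after scaling, and 4 root markers were higher. XTH23 at 0.87, XTH19 at 0.86 and XTH24, known as MERI5, at 0.79 were the largest differences the other way. XTH24 (AT4G30270) stood at 62.3 RPKM in hls1, at 59.7 in pifq, at 73.8 in ein3 eil1 and at 104 in pifq ein3 eil1, against 60.3 in Col-0.

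**Figure D4:**
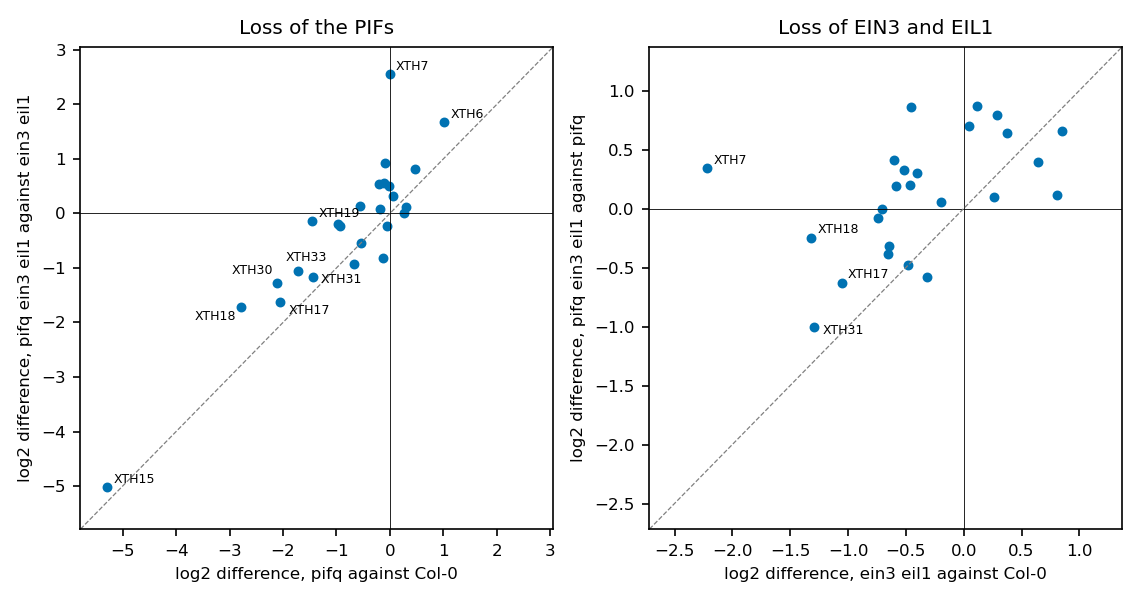
Log2 differences of the 25 members that reached 1 RPKM, on the left for the PIF mutations and on the right for the ein3 and eil1 mutations, each with the other set intact (x axis) and mutated (y axis); the dashed line marks equal differences, and members past 1 either way are named. XTH15 lies near the line at -5.29 and -5.02, and XTH7 lies far from it on both sides, at -2.22 and 0.34 on the right.

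The interaction is the log2 difference made by the ein3 and eil1 mutations without the PIFs minus that with them. It was 1 or more in 4 of the 33 members, or 12.1%, where 3.35% of all measured genes were, and -1 or less in 0, where 1.5% of all were. Of the 19 members at 10 RPKM or more in some genotype, 4 had 1 or more and 0 had -1 or less, where 2.98% and 1.21% of all such genes did. XTH7 had 2.56: ein3 eil1 stood alone at 8.33 RPKM, while pifq ein3 eil1 at 53.7 and pifq at 42.2 were near Col-0 at 42.4. It was 2.37 after scaling. XTH19 had 1.31, XTH18 1.07 and XTH27 1.01. The interaction was 0.86 for XTH18 and 0.81 for XTH27 after scaling, both under the threshold, and the median over all genes was 0.18 as deposited. Of all genes past 1 either way, 69% had a positive interaction as deposited and 53% after scaling. For XTH15 the interaction was 0.27.

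Of 18 genes that make or trim xyloglucan, 1 was lower in pifq, where 6.22% of all measured genes were, so the count is no result about these genes. It was CSLC4, 1 of 14 synthesis genes, and none was higher. CSLC4, a glucan synthase gene of the xyloglucan backbone, stood at 159 RPKM in hls1, 57.9 in pifq and 112 in ein3 eil1, and at 65.4 in pifq ein3 eil1, against 129 in Col-0. Its log2 difference was -1.14 in pifq and -0.96 in pifq ein3 eil1. Of 4 trimming genes, none passed in any comparison. Over all 18, the median was 0.08 for hls1, -0.27 for pifq, -0.19 for ein3 eil1 and -0.47 for pifq ein3 eil1, each against Col-0, beside 0.04, -0.05, -0.29 and -0.17 over all genes. XYL1, the xyloglucan α-xylosidase, stood at 161 RPKM in hls1, at 97.3 in pifq, at 135 in ein3 eil1 and at 84.1 in pifq ein3 eil1, against 136 in Col-0. The xylosyltransferase genes XXT2 at -0.61 and XXT5 at -0.83 were under the threshold in pifq.

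Of the members never called, XTH8 (AT1G11545) stood at 348 RPKM in hls1, 165 in pifq and 193 in ein3 eil1, and at 164 in pifq ein3 eil1, against 316 in Col-0. XTH28 (AT1G14720), known from stamens, stood at 34.2 RPKM in hls1, at 34.0 in pifq, at 15.1 in ein3 eil1 and at 27.2 in pifq ein3 eil1, against 24.2 in Col-0. XTH22 was highest at 32.2 RPKM in hls1 and lowest at 18.4 in Col-0. XTH4, XTH24, XTH10, XTH12, XTH14 and XTH26 complete those that reached 1 RPKM without a call.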

How the data were processed

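Polyadenylated RNA of shoots was sequenced from 10 samples, 2 for each of 5 genotypes, as paired reads of 150 nt. Per the submitters' processing notes, BWA 0.7.7 and the TAIR10 build were used. How reads were counted, with which strand setting and which gene lengths, is not given in the sources used here. RPKM values were made and deposited by the authors, with 1 column per genotype. Of the values above 0, 51.0% to 51.7% carry 7 or more significant digits, and 95.3% to 96.0% of these end in 5, as means of a pair of numbers do. Differences were taken on log2(RPKM + 1). The planned limma test, replicate block and leave-one-out could not be run without values per sample. The interaction is a difference of differences. Alternatives were pseudocounts of 0.1 and 0.5, no filter, a mean RPKM of 1, a minimum of 5 RPKM, and median-of-ratios scaling.

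The members and lists were chosen with earlier results of these data known. Values in every genotype are given for members past the threshold with 10 RPKM or more, and for further members picked after their values were seen. All 33 identifiers matched an XTH name in the reference gene table. The table's own descriptions named xyloglucan for 9 of the 24 members that have one. A search for that word can miss other names of these genes. The descriptions thus appear mostly not to match the identifiers of their lines, and they were not used. Every value given here assumes that the RPKM values belong to the identifiers. The only check of this made here is the level of the mutated genes in their own mutants, and it was mixed. EIN3, EIL1 and PIF3 were lower in each of their mutants, and PIF5 in pifq but not in pifq ein3 eil1. HLS1, PIF1 and PIF4 were lower in none of their own. BGLC1 and BGLC3 were left out because the reference gives them no symbol. Sequences are from RefSeq, TAIR10.1. Shared runs were compared between transcripts, and coding identity over global alignments in Biopython 1.88. The read depth was estimated from the commonest step of low values times exon length, binned at 0.01.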

Additional observations from a re-analysis of the deposited data

How the results depend on the processing

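No paired analysis was possible because the table holds 1 value per genotype, and for the same reason no replicate could be left out. The counts that moved by more than 1.5 times are given here. With a pseudocount of 0.1, 3 members were higher in ein3 eil1 against Col-0, 2 in pifq ein3 eil1 against Col-0 and 1 in pifq ein3 eil1 against pifq, and 1 had an interaction of -1 or less. With a pseudocount of 0.5, 2 members each were higher in ein3 eil1 and in the combined mutant against Col-0. With a minimum of 5 RPKM, which leaves out XTH6, 0 members were higher in pifq, 0 in pifq ein3 eil1 against Col-0, and 1 in pifq ein3 eil1 against ein3 eil1. After median-of-ratios scaling, 1 member was lower in ein3 eil1 against Col-0, 0 were lower in pifq ein3 eil1 against pifq, 2 were higher in pifq ein3 eil1 against Col-0, and 2 had an interaction of 1 or more. Scaling removes the shift in the median of all genes, for example -0.29 for ein3 eil1 against Col-0. The count of lower members in pifq was 7 under all 6 alternatives, and the counts in hls1 and of lower members in pifq ein3 eil1 against Col-0 and against ein3 eil1 stayed within 1.5 times. At the edge of that range, the count of higher members in hls1 rose from 6 to 9 with a pseudocount of 0.1 or 0.5. Of 658 values of the 16 members called anywhere as reported, 649 kept their side of the threshold, 8 fell under it and 1 passed it. All 9 of these were after scaling, and 0 values changed sign past the threshold. Members that passed only with a smaller pseudocount are not among the 16, so these values do not cover them. Settings that change only the filter leave each log2 difference as it was, so their values could not move. Under scaling alone, 103 values kept their side. Depth limits XTH6, XTH10, XTH12, XTH14, XTH20 and XTH26, which rest on about 2 to 187 reads per genotype.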

Other observations

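Some XTH genes lie side by side on a chromosome. XTH24, XTH18 and XTH19 follow each other on chromosome 4 on the same strand with no annotated gene between them. In pifq against Col-0, XTH24 differed by -0.02, XTH18 by -2.79 and XTH19 by -1.46. XTH23 and XTH14 are neighbours on chromosome 4 too, and stood at 61.5 and 5.81 RPKM in hls1, against 16.7 and 2.51 in Col-0, log2 differences of 1.82 and 0.96.

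On chromosome 5, XTH12, XTH13, XTH25 and XTH22 lie in a row, with 1 other annotated gene between XTH12 and XTH13. XTH22 was at 32.2 RPKM in hls1, 19.2 in pifq, 24.1 in ein3 eil1, 30.4 in pifq ein3 eil1 and 18.4 in Col-0. XTH12 stayed at or under 1.32 RPKM, XTH13 under 0.5 RPKM, and XTH25 was listed at 0. The neighbours XTH1 and XTH2 on chromosome 4 were both listed at 0 in every genotype.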
